A study of Homo sapiens with 6 samples.

Results

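The heat shock proteins, the DNAJ (J-domain) proteins and the BAG co-chaperones were examined by RNA-seq as a single family of genes in HCCLM3 cells, an established human hepatocellular carcinoma line. Its members were the protein-coding genes whose symbols begin with HSPA, HSPB, HSP90A or DNAJ, together with HSPD1, HSPE1, HSPH1, HSF1, HSF2 and BAG1 to BAG6, and without HSPA5. This rule uses symbols and no measured value, and it found 82 of the 58302 genes listed. It also takes in genes that share a prefix and not a function: HSPBP1 is an exchange factor of HSP70 and HSPB11 a subunit of the intraflagellar transport machinery. Of the 82 members, 51 averaged 1 FPKM or more and were tested (FPKM is fragments per kilobase of gene and per unit of library size).

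Cells were transfected with either an antisense oligonucleotide (ASO) against SCARNA13, a small Cajal body-specific RNA, or a Control ASO, with 3 replicates in each group. ASOs are short nucleic acid strands that direct RNase H to a complementary RNA. The series was made to find genes downstream of SCARNA13. Both groups are the same line with no other agent named, the labels give no dose or time, and nothing says whether replicates were separate cultures, so p-values measure the spread between these samples, which may be technical.

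Chaperones bind unfolded protein and hold it until it folds. HSP70 proteins do this with ATP: J-domain proteins bring them clients and start hydrolysis. Exchange factors such as HSPH1 and several BAG proteins release ADP and the client, which can then pass to HSP90. Cells keep constitutive members such as HSPA8 and HSP90AB1 at all times, whereas inducible members such as HSPA1A, HSPA1B, DNAJB1 and BAG3 are raised by protein damage when the transcription factor HSF1 forms trimers on heat shock elements, repeats of the letters GAA in alternating direction. Tumour lines often carry high levels of many of these genes without any heat.

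Heat shock elements are shown here for some of the members whose levels are described in the sections that follow. The choice favoured members that passed in a fit given below, so it does not show how elements relate to levels. The search was made in RefSeq promoter windows (GRCh38.p14), which run from 250 bases before to 50 after each start. A gene with several starts has several windows, and a match in any of them was counted. A pair of units was searched as GAANNTTC or TTCNNGAA, each of which reads the same on both strands, and overlapping matches were allowed. Capitals mark the matches, and each line runs in the direction of the gene.
HSPA1A (chr6:31815427-31815454, plus strand): gaaaaccctgGAATATTCccgacctggc
HSPA1B (chr6:31827623-31827650, plus strand): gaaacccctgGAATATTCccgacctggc
HSPA8 (chr11:123062169-123062376, minus strand): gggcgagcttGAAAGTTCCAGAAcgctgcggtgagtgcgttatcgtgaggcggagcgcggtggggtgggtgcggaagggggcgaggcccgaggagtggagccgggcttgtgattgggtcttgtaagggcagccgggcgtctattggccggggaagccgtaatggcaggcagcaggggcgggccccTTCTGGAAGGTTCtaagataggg
HSP90AA1 (chr14:102087095-102087142, minus strand): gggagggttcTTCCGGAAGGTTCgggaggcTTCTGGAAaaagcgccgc
HSP90AB1 (chr6:44247768-44247853, plus strand): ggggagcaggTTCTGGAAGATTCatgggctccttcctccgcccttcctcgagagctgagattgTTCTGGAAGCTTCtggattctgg
DNAJA1 (chr9:33025065-33025298, plus strand): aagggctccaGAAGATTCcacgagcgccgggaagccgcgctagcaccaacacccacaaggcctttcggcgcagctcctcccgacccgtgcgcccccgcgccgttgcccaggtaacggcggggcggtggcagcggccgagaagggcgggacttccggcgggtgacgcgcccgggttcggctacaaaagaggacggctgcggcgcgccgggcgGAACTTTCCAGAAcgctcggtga
DNAJB1 (chr19:14518427-14518484, minus strand): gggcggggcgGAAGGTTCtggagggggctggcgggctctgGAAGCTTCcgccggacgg
DNAJB4 (chr1:78004831-78004858, plus strand): gcatttgctgTTCTAGAAagtacagaga

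The HSPA1A and HSPA1B stretches differed at 1 of 28 bases. A match was present for 14 of the 47 tested members with a window (29.8%), against 13.02% of the 7044 tested protein-coding genes with one. Over all windows, with genes not tested included, it was present for 23 of 71 members (32.4%), against 16.2% of 27305 genes. By list it was present for 10 of 13 inducible members (76.9%), 4 of 11 constitutive members (36.4%) and 0 of 9 members of the endoplasmic reticulum (ER). The inducible list was made of genes described elsewhere as raised by heat shock through HSF1, so a high share follows from that choice. Its matches include HSPA4L and HSPA6, which were not tested. The lists were closer for a run of 3 alternating units. That run was present for 4 of 13 inducible members (30.8%), 3 of 11 constitutive members (27.3%) and 0 of 9 ER members. The shares were not adjusted for the number of windows. There were 20 windows for the 13 inducible members, 16 for the 11 constitutive members and 9 for the 9 ER members. The 7044 tested protein-coding genes had 10153. Among tested members, BAG2, DNAJB6, DNAJC6, HSPA9, HSPB1 and HSPD1 also had a pair, which is not shown. No pair was found in any window of BAG3, HSPE1, HSPH1 or DNAJB2. The lines shown for HSP90AA1, HSP90AB1, DNAJB1 and DNAJB4 come from 1 window each. Each of these genes has another window without a pair, and a further DNAJB1 window holds a pair not shown. A match is a run of letters and does not show that HSF1 binds there.

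Libraries held 20457474 to 25173559 reads in genes, recovered from the deposited FPKM. SCARNA13 itself was covered by 2, 3 and 2 reads in the SCARNA13 ASO libraries and by 6, 5 and 2 reads in the Control ASO libraries, too few to measure the knockdown. Of 9 hepatocyte and hepatoma markers, KRT8, KRT18 and SERPINA1 averaged at least 1 FPKM, while ALB, GPC3 and APOB were listed at 0 in all libraries. The summed level of the 5 immune markers, nearly all of it CD14, was 2.25 to 3.27 FPKM in SCARNA13 ASO and 2.87 to 6.85 FPKM in Control ASO. The 4 endothelial markers summed to at most 0.106 FPKM, and COL3A1 was the only 1 of 5 fibroblast markers above 1 FPKM. Replicate 3 stood apart from replicates 1 and 2 in both groups. Over the 51 tested members, replicates 1 and 2 differed by a median of 0.068 (log2) in SCARNA13 ASO and 0.048 in Control ASO, while replicate 3 lay a median of 0.573 from their mean in SCARNA13 ASO and 0.796 in Control ASO. The shift followed the G+C content of the transcript, with r = 0.81 in SCARNA13 ASO and 0.85 in Control ASO over these 51 members, given as a description since all points share the same libraries.

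**Figure D1:**
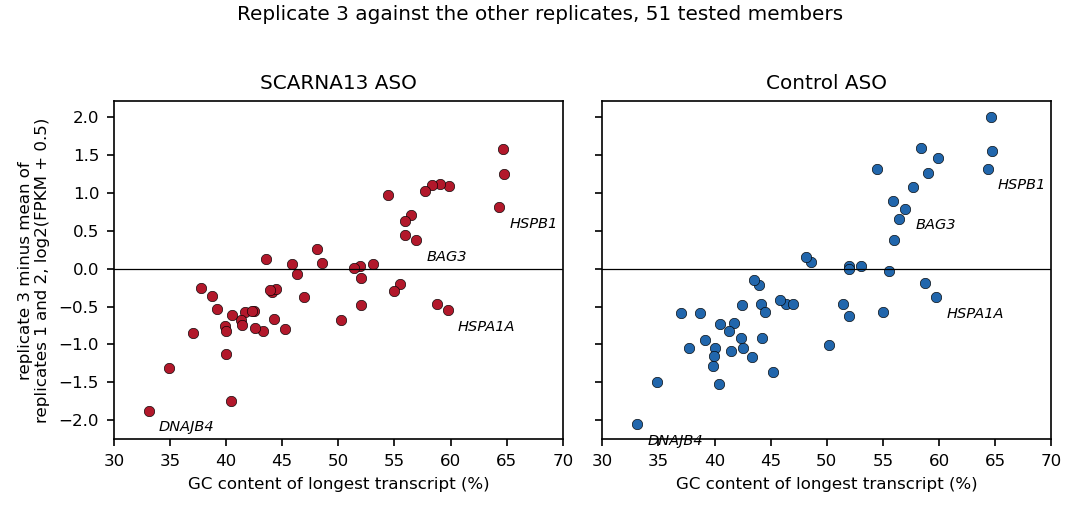
Shift of replicate 3 from the mean of replicates 1 and 2 (vertical, log2) against transcript G+C content (horizontal, percent) for the 51 tested members, with SCARNA13 ASO on the left and Control ASO on the right. In both groups GC-poor members such as DNAJB4 lie below 0 and GC-rich members such as HSPB1 lie above it, over a range of -1.88 to 1.58 in SCARNA13 ASO and -2.05 to 2.01 in Control ASO.

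Values from 3 limma fits are therefore given. With group as the only term and the values as deposited, 0 of 10120 genes (0%) passed an adjusted p of 0.05, 173 had an unadjusted p under 0.05, and limma-voom on the recovered reads also called 0. No member passed, and none had an unadjusted p under 0.05. With G+C content corrected within each library and the replicate number as a block, 5 of 51 members fell and 2 rose, against 2.15% of 10104 genes that fell and 3.06% that rose. In replicates 1 and 2 alone, 8 of 51 members were lower and 2 higher, against 4.59% of 10120 genes lower and 4.52% higher. In the text, "rose" and "fell" refer to the fit with G+C correction and block, every adjusted p is from limma with Benjamini-Hochberg adjustment over all genes, and ± after a log2 fold change is its SE. The calls rest on replicates 1 and 2 together: 0 members and 14 genes passed without replicate 1, 0 genes passed without replicate 2, and 9 members among 763 genes passed without replicate 3.

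The members did not move as 1 body. Their median log2 fold change was 0.0069 in the fit with G+C correction and block, with 25 negative and 26 positive, beside 0.00026 over all genes. In RNA from bulk cells, fewer cells of a kind and less RNA per cell cannot be told apart. The 5 members that fell were 3 of the 8 tested HSP70 and HSP110 genes (HSPA1A, HSPA1B and HSPA8), the J-domain protein DNAJA1 and the exchange factor BAG3, 1 of 6 BAG genes. HSPA1A and HSPA1B are nearly identical in coding sequence, so their falls may not be separate measurements. The size of the fall lay between that of HSPA8, which fell by 18.6%, and that of BAG3, which fell by 28.8%. The 2 that rose were class B J-domain proteins, DNAJB4 by 1.58-fold and DNAJB2 by 1.38-fold. On deposited values the groups were separate for 6 members that were lower (BAG1, BAG3, DNAJB1, HSPA1A, HSPA1B and HSPA2), against 4.44% of 10120 genes. They were separate for 1 that was higher, DNAJA3, against 4% of genes, with an exact two-sided p of 0.1 for each, the smallest that 3 against 3 allows.

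**Figure D2:**
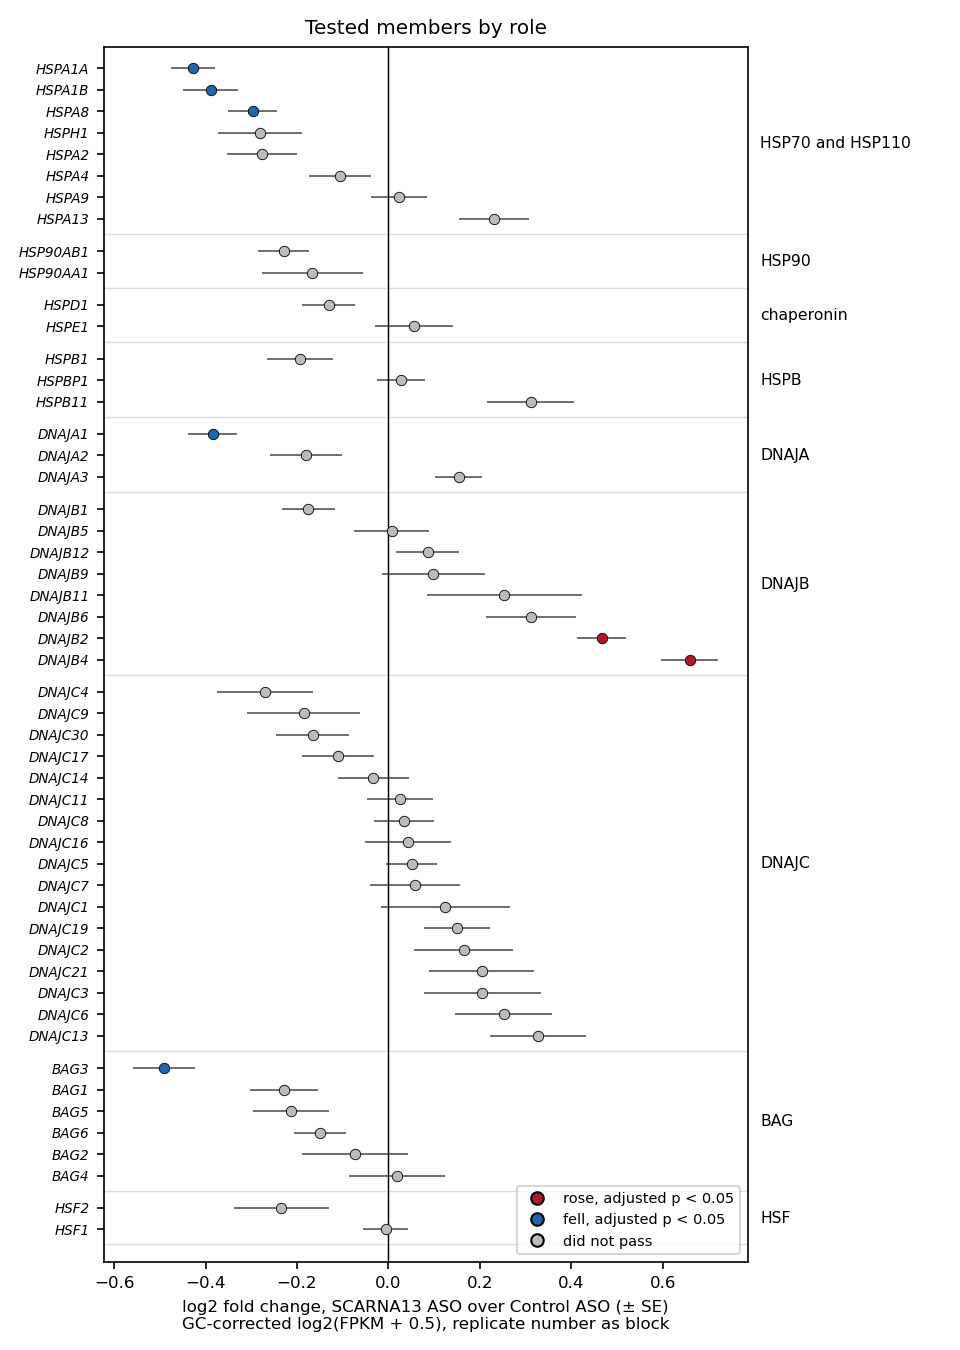
Log2 fold change of the 51 tested members, SCARNA13 ASO over Control ASO, with its standard error, in the fit with G+C correction and replicate block, grouped by role. Red points rose, blue points fell and grey points did not pass; the 5 blue points lie between -0.49 and -0.30 and the 2 red points at 0.47 and 0.66.

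Among the HSP70 genes, HSPA1A and HSPA1B encode the stress-inducible HSP70 and lie next to each other on chromosome 6. HSPA1A (ENSG00000204389, chr6:31815464-31817946, plus strand, GRCh38) had 20.9, 21.9 and 14.5 FPKM in SCARNA13 ASO, against 28.6, 29.7 and 22.3 FPKM in Control ASO. All 3 SCARNA13 ASO libraries lay below all 3 Control ASO libraries, by less than 1 FPKM between SCARNA13 ASO replicate 2 and Control ASO replicate 3. The means were 19.1 ± 4.03 FPKM in SCARNA13 ASO and 26.9 ± 3.98 FPKM in Control ASO (SD, n = 3 each). The log2 fold change was -0.43 ± 0.049 (adjusted p = 0.0365), a level that fell by 25.6%. HSPA1B (ENSG00000204388, chr6:31827735-31830255, plus strand) had 15.3, 16.6 and 11.4 FPKM in SCARNA13 ASO, against 21.4, 19.9 and 18.1 FPKM in Control ASO. These groups did not overlap either. The log2 fold change was -0.39 ± 0.060 (adjusted p = 0.0412), and in replicates 1 and 2 alone its adjusted p was 0.0390 without the replicate block and 0.0579 with it. The coding sequences of this pair are nearly identical, so the authors' counting could have split their reads, and 36.5% of the exonic bases of HSPA1B are also annotated to AL671762.1 on the same strand. HSPA1A held 54.9% to 59.5% of the pair's reads in every library. Counted as 1 gene, the pair had 36.2, 38.5 and 25.9 FPKM in SCARNA13 ASO, against 50.1, 49.5 and 40.4 FPKM in Control ASO, a log2 fold change of -0.42 ± 0.047 (adjusted p = 0.0365).

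HSPA8 (ENSG00000109971, chr11:123057489-123063230, minus strand) encodes HSC70, the constitutive HSP70 of the cytosol, and was the most abundant HSP70 gene tested. It had 123.6, 112.3 and 91.1 FPKM in SCARNA13 ASO, against 147.4, 149.6 and 107.0 FPKM in Control ASO. The groups overlapped, since Control ASO replicate 3 lay below SCARNA13 ASO replicates 1 and 2, while SCARNA13 ASO was lower within each replicate number. It fell by 18.6% (log2 fold change -0.30 ± 0.053, adjusted p = 0.0487). Its adjusted p was the nearest to the threshold among the 7 calls.

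The other HSP70 genes gave no call. HSPA2, the testis-enriched HSP70, had 3.20, 3.21 and 2.55 FPKM in SCARNA13 ASO, against 3.83, 3.95 and 3.29 FPKM in Control ASO. Its groups were separate, with a log2 fold change of -0.28 ± 0.077 (adjusted p = 0.0889). HSPA4, an HSP110-type exchange factor, had 9.84, 9.57 and 5.42 FPKM in SCARNA13 ASO, against 11.4, 10.7 and 5.07 FPKM in Control ASO, and the direction differed between replicate numbers. HSPH1, the heat-inducible HSP110, had 2.62, 2.52 and 1.23 FPKM in SCARNA13 ASO, against 3.35, 3.55 and 1.27 FPKM in Control ASO. The log2 fold change was -0.28 ± 0.092 (adjusted p = 0.120), and it passed in replicates 1 and 2 alone (adjusted p = 0.0415) but not there with the replicate block (adjusted p = 0.0611) or with correction and block (adjusted p = 0.0580). HSPA9, the mitochondrial HSP70 mortalin, had 35.3, 32.4 and 37.2 FPKM in SCARNA13 ASO, against 35.5, 34.9 and 31.9 FPKM in Control ASO, with overlapping groups. HSPA13, a microsome-associated relative, had 4.71, 4.60 and 1.58 FPKM in SCARNA13 ASO, against 4.19, 3.87 and 1.11 FPKM in Control ASO. It was higher in SCARNA13 ASO within each replicate number, without passing (log2 fold change 0.23 ± 0.076, adjusted p = 0.120).

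**Figure D3:**
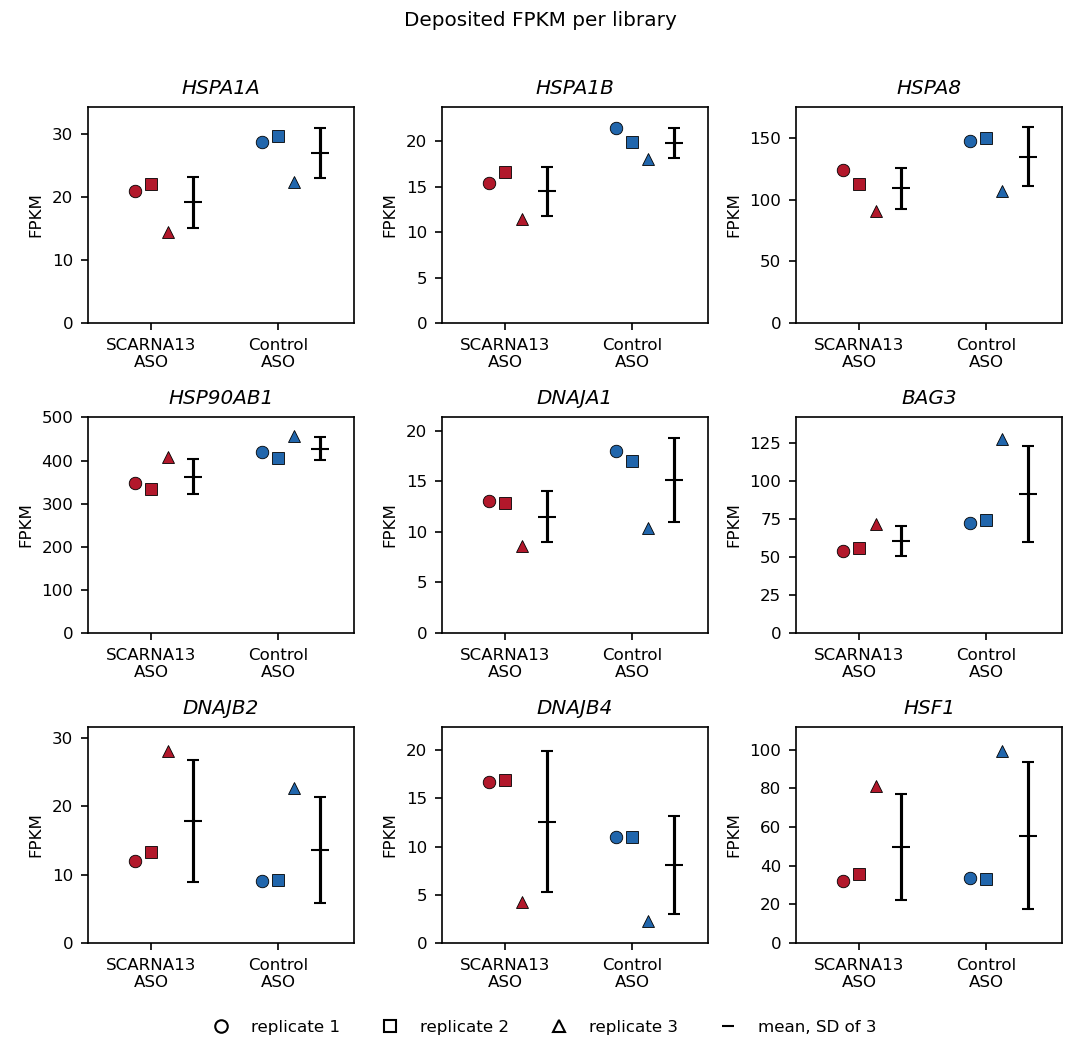
Deposited FPKM (vertical axes from 0) of HSPA1A, HSPA1B, HSPA8, HSP90AB1, DNAJA1, BAG3, DNAJB2, DNAJB4 and HSF1 in each library, SCARNA13 ASO in red on the left and Control ASO in blue on the right; circles, squares and triangles are replicates 1, 2 and 3, and bars show the mean and SD (n = 3 each). HSPA1A, HSPA1B and BAG3 show no overlap, while DNAJB2, DNAJB4 and HSF1 are spread mostly by replicate 3.

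Both HSP90 genes, whose products complete the folding of kinases and steroid receptors, were lower in replicates 1 and 2. HSP90AB1, the constitutive form and second in level among all members, had 347, 333 and 408 FPKM in SCARNA13 ASO, against 420, 405 and 457 FPKM in Control ASO. It was lower in SCARNA13 ASO within each replicate number and missed the threshold with G+C correction and block (log2 fold change -0.23 ± 0.056, adjusted p = 0.0721), while it passed in replicates 1 and 2 alone (-0.28 ± 0.048, adjusted p = 0.0365). HSP90AA1, the inducible form, had 28.6, 27.5 and 15.9 FPKM in SCARNA13 ASO, against 35.5, 36.2 and 13.6 FPKM in Control ASO. Its direction in replicate 3 was opposite to that in replicates 1 and 2. In replicates 1 and 2 alone its log2 fold change was -0.35 ± 0.045 (adjusted p = 0.0246), and with all 3 pairs -0.17 ± 0.11 (adjusted p = 0.352). HSP90AA1 was the exception among the 10 members called in replicates 1 and 2, since the other 9 had the same sign in replicate 3. Over all genes called in replicates 1 and 2 the same sign was seen for 863 of 922 (93.6%).

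Among J-domain proteins, DNAJA1 fell and DNAJB2 and DNAJB4 rose, out of 28 tested of 45. DNAJA1 (ENSG00000086061, chr9:33025211-33039907, plus strand), a farnesylated class A partner of HSC70, had 13.1, 12.8 and 8.55 FPKM in SCARNA13 ASO, against 17.9, 17.0 and 10.4 FPKM in Control ASO. It was lower in SCARNA13 ASO within each replicate number, although Control ASO replicate 3 lay below SCARNA13 ASO replicates 1 and 2. It fell by 23.4% (log2 fold change -0.38 ± 0.054, adjusted p = 0.0380). Its window holds a run of 3 alternating units, GAANNTTCNNGAA on either strand, present in 0.398% of the tested protein-coding genes, as do the windows of HSP90AA1, HSPA6, HSPD1, DNAJB6, HSP90AB1 and HSPA8.

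DNAJB4 (ENSG00000162616, chr1:77979175-78017964, plus strand), a heat-inducible class B protein, had 16.7, 16.9 and 4.22 FPKM in SCARNA13 ASO, against 11.003, 11.02 and 2.28 FPKM in Control ASO. The level of replicate 3 was far below that of the other replicates in both groups, and SCARNA13 ASO was higher within each number. The log2 fold change was 0.66 ± 0.063 (adjusted p = 0.0360), the largest of any tested member; on deposited values without Control ASO replicate 3 it was -0.037. Its transcript has the lowest G+C content among the tested members (33.1%). DNAJB2 (ENSG00000135924, chr2:219279267-219286900, plus strand), which carries ubiquitin-interacting motifs and delivers clients to the proteasome, had 12.1, 13.3 and 28.2 FPKM in SCARNA13 ASO, against 9.08, 9.23 and 22.6 FPKM in Control ASO. Here replicate 3 was the highest in both groups, and SCARNA13 ASO was again higher within each number. The log2 fold change was 0.47 ± 0.054 (adjusted p = 0.0365); on deposited values it was 0.027 without SCARNA13 ASO replicate 3 and 0.82 without Control ASO replicate 3. The pair thus rose in the fit although replicate 3 moved their levels in opposite directions. DNAJB1 (HSP40), the classic inducible class B protein, had 115, 128 and 127 FPKM in SCARNA13 ASO, against 143, 143 and 146 FPKM in Control ASO. Its groups were separate, and it did not pass (log2 fold change -0.18 ± 0.058, adjusted p = 0.122). DNAJB6, a suppressor of polyglutamine aggregation, had 18.3, 17.6 and 14.5 FPKM in SCARNA13 ASO, against 16.0, 15.8 and 10.6 FPKM in Control ASO (log2 fold change 0.31 ± 0.098, adjusted p = 0.111). Of the 8 tested class B genes, 7 had a positive sign and DNAJB1 a negative one.

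None of the 17 tested DNAJC genes passed, with log2 fold changes of -0.27 to 0.33. The ends of that range were DNAJC4 and DNAJC13. DNAJC13, an endosomal protein, had 1.86, 1.82 and 0.901 FPKM in SCARNA13 ASO, against 1.47, 1.51 and 0.439 FPKM in Control ASO (adjusted p = 0.115). DNAJC4 had 9.09, 7.33 and 18.2 FPKM in SCARNA13 ASO, against 9.07, 9.45 and 29.1 FPKM in Control ASO (adjusted p = 0.160). DNAJC13 was higher in SCARNA13 ASO within each number, while for DNAJC4 replicate 1 showed nearly no difference. DNAJC5, the cysteine string protein of secretory vesicles, had 27.8, 28.2 and 57.5 FPKM in SCARNA13 ASO, against 27.2, 28.7 and 59.4 FPKM in Control ASO. DNAJC8, a spliceosome-associated protein, had 20.3, 20.2 and 16.8 FPKM in SCARNA13 ASO, against 21.3, 21.0 and 14.1 FPKM in Control ASO. DNAJC9, a histone chaperone, had 2.41, 2.88 and 2.76 FPKM in SCARNA13 ASO, against 3.57, 3.38 and 2.47 FPKM in Control ASO. The groups of DNAJC5, DNAJC8 and DNAJC9 overlapped.

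Among the class A genes, DNAJA2 had 4.25, 4.51 and 2.56 FPKM in SCARNA13 ASO, against 5.37, 4.91 and 2.70 FPKM in Control ASO, lower within each number without passing (log2 fold change -0.18 ± 0.078, adjusted p = 0.190). DNAJA3 (TID1), the J-domain partner of mortalin in mitochondria, had 13.9, 13.4 and 14.04 FPKM in SCARNA13 ASO, against 12.8, 12.3 and 12.9 FPKM in Control ASO. Its groups were separate and its replicates close together, yet it did not pass (log2 fold change 0.15 ± 0.051, adjusted p = 0.122). DNAJC6 (auxilin), which helps HSC70 strip clathrin from vesicles, had 1.72, 1.81 and 1.04 FPKM in SCARNA13 ASO, against 1.49, 1.59 and 0.582 FPKM in Control ASO. It was higher in SCARNA13 ASO within each number and did not pass (log2 fold change 0.25 ± 0.11, adjusted p = 0.180). DNAJC2 and DNAJC21, which work at the ribosome, did not pass either, with log2 fold changes of 0.16 ± 0.11 for DNAJC2 and 0.20 ± 0.12 for DNAJC21. DNAJC7, which binds HSP70 and HSP90 through TPR repeats, and DNAJB5 had values near 0, 0.058 ± 0.098 for DNAJC7 and 0.0069 ± 0.082 for DNAJB5. Several members share exonic bases with other genes, so their levels are uncertain where the counting could mix them: 58.1% for DNAJC14, 44.2% for BAG2, 29.1% for DNAJC9, 27.9% for DNAJC11, 26.1% for DNAJC17 and 23.2% for DNAJB11.

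Among the BAG genes, BAG3 fell. BAG3 (ENSG00000151929, chr10:119651370-119677819, plus strand) is an inducible scaffold of selective autophagy that joins HSP70 to the small heat shock proteins. It had 53.7, 56.1 and 71.6 FPKM in SCARNA13 ASO, against 72.3, 74.5 and 127.8 FPKM in Control ASO. The groups were separate, by less than 1 FPKM between SCARNA13 ASO replicate 3 and Control ASO replicate 1. Its mean was 60.5 ± 9.69 FPKM in SCARNA13 ASO and 91.5 ± 31.4 FPKM in Control ASO (SD, n = 3 each), and it fell by 28.8% (log2 fold change -0.49 ± 0.068, adjusted p = 0.0380). BAG1, linked to the proteasome, had 2.91, 2.88 and 3.06 FPKM in SCARNA13 ASO, against 3.68, 3.32 and 3.76 FPKM in Control ASO, separate groups without a call (log2 fold change -0.23 ± 0.075, adjusted p = 0.118). BAG6, which guards tail-anchored membrane proteins, had 106, 114 and 235 FPKM in SCARNA13 ASO, against 116, 118 and 325 FPKM in Control ASO. BAG5, with several BAG domains, had 3.04, 2.54 and 1.73 FPKM in SCARNA13 ASO, against 3.34, 3.06 and 2.15 FPKM in Control ASO. BAG5 and BAG6 were lower within each replicate number, did not pass (adjusted p = 0.158 for BAG5 and 0.154 for BAG6) and had overlapping groups. BAG2, an inhibitor of the ubiquitin ligase STUB1, had 1.92, 1.88 and 0.832 FPKM in SCARNA13 ASO, against 1.75, 1.89 and 1.05 FPKM in Control ASO. BAG4, a silencer of death receptors, had 2.11, 2.11 and 0.695 FPKM in SCARNA13 ASO, against 2.19, 1.80 and 0.699 FPKM in Control ASO. Neither BAG2 nor BAG4 kept 1 direction over the replicate numbers.

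HSPB1 (HSP27), a small heat shock protein that holds unfolded clients without ATP, had the highest mean level of all members. It had 365, 406 and 680 FPKM in SCARNA13 ASO, against 413, 416 and 1038 FPKM in Control ASO. It was lower in SCARNA13 ASO within each replicate number and did not pass (log2 fold change -0.19 ± 0.072, adjusted p = 0.148). The mitochondrial chaperonin HSPD1 had 34.4, 32.8 and 21.1 FPKM in SCARNA13 ASO, against 39.2, 38.6 and 20.4 FPKM in Control ASO. Its cap HSPE1 had 14.9, 14.5 and 9.01 FPKM in SCARNA13 ASO, against 15.7, 15.5 and 7.46 FPKM in Control ASO. Both were lower in replicates 1 and 2 and higher in replicate 3, and 23.9% of the exonic bases of HSPE1 are shared with other genes. Among the genes taken in by prefix, HSPBP1 had 49.4, 52.7 and 153.8 FPKM in SCARNA13 ASO, against 48.4, 47.6 and 194.9 FPKM in Control ASO. HSPB11 had 4.09, 4.82 and 3.04 FPKM in SCARNA13 ASO, against 3.85, 3.59 and 2.24 FPKM in Control ASO. HSPB11 was higher within each number and neither gene passed (adjusted p = 0.755 for HSPBP1 and 0.106 for HSPB11). The order of the highest mean levels over the 6 libraries was HSPB1 (553 FPKM), HSP90AB1 (395), BAG6 (169), DNAJB1 (134), HSPA8 (122), HSPBP1 (91.1), and BAG3 (76.0). Replicate 3 weighs on this order: in each of the 4 libraries of replicates 1 and 2, BAG6 lay below DNAJB1 and HSPBP1 below BAG3. Neighbours in that order overlapped over the libraries, except HSP90AB1, whose lowest library (333 FPKM) lay just above the highest of BAG6 (325 FPKM).

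The heat shock factors showed no call. HSF1, the main activator of the inducible genes, had 32.0, 35.6 and 81.0 FPKM in SCARNA13 ASO, against 33.8, 33.1 and 99.3 FPKM in Control ASO. The groups overlapped, with a log2 fold change of -0.0061 ± 0.049 (adjusted p = 0.942). HSF2, a second activator with a role in development, had 1.09, 1.05 and 0.524 FPKM in SCARNA13 ASO, against 1.27, 1.47 and 0.622 FPKM in Control ASO (log2 fold change -0.23 ± 0.10, adjusted p = 0.197). HSF1 is switched on by release from chaperones and by phosphorylation, which mRNA levels do not measure.

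The inducible list held 13 members, of which 11 were tested. These 13 were HSPA1A, HSPA1B, HSPA4L, HSPA6, HSPH1, HSP90AA1, HSPD1, HSPE1, HSPB1, DNAJA1, DNAJB1, DNAJB4 and BAG3, with HSPA4L and HSPA6 not tested. In the fit with G+C correction and block 4 fell (HSPA1A, HSPA1B, DNAJA1 and BAG3), DNAJB4 rose and 6 did not pass, with a median log2 fold change of -0.19. Over all genes, 2.15% fell and 3.06% rose in that fit, and the falls of HSPA1A and HSPA1B may not be separate measurements. The constitutive list held 12, of which 11 were tested: HSPA8 fell, none rose and 10 did not pass, with a median of -0.15. Its members were HSPA4, HSPA8, HSPA9, HSPA14, HSP90AB1, DNAJA2, DNAJA3, DNAJB6, DNAJC7, BAG1, BAG5 and BAG6, with HSPA14 not tested. In replicates 1 and 2 alone the inducible median was -0.35 with 6 lower and 1 higher, and the constitutive median -0.18 with 2 lower. Over all genes, 4.59% were lower and 4.52% higher there. On deposited values the medians were -0.25 for inducible and -0.16 for constitutive members, beside -0.025 over all genes, and the constitutive median was 0.0064 without Control ASO replicate 1. The summed level of the inducible list was 681, 737 and 965 FPKM in SCARNA13 ASO, against 801, 805 and 1408 FPKM in Control ASO. That of the constitutive list was 669, 647 and 816 FPKM in SCARNA13 ASO, against 776, 762 and 961 FPKM in Control ASO. Both sums were lower in SCARNA13 ASO within each replicate number, and the difference between the lists was not tested. HSPB1, which did not pass, made up the largest part of the inducible sum in every library. It had 365, 406 and 680 FPKM in SCARNA13 ASO, against 413, 416 and 1038 FPKM in Control ASO. HSP90AB1, which did not pass with G+C correction and block, was the largest part of the constitutive sum.

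Members of the ER had small positive values. All 7 tested ER-located members, among them the J-domain proteins DNAJB9, DNAJB11 and DNAJC3 that work with the ER HSP70, had positive log2 fold changes of 0.043 to 0.25 in the fit with G+C correction and block, and none passed. Their median was 0.12 there but 0.024 in replicates 1 and 2, where 5 of 7 were positive. On deposited values without Control ASO replicate 3 it was -0.10. By pair and after G+C correction the ER median was 0.065, 0.0061 and 0.31 for replicates 1, 2 and 3. The inducible median was -0.30, -0.28 and -0.13 for the same pairs. The constitutive median was -0.12, -0.098 and -0.15, so in replicate 3 it was lower than the inducible median. On deposited values the replicate 3 medians were -0.20 for inducible and -0.062 for constitutive members. In the fit with G+C correction and block the 7 tested mitochondrial members had a median of 0.025, and none passed. This list shares genes with the others: HSPD1 and HSPE1 are also inducible members, and HSPA9 and DNAJA3 also constitutive members.

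**Figure D4:**
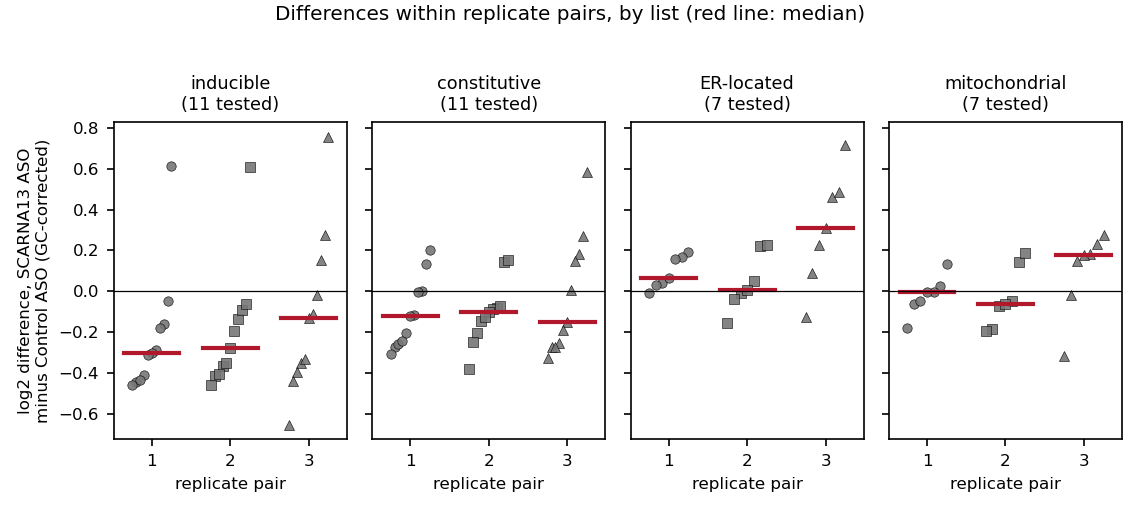
Log2 difference, SCARNA13 ASO minus Control ASO within each replicate number after G+C correction (vertical), for the tested members of the inducible (11), constitutive (11), ER-located (7) and mitochondrial (7) lists; the red line is the median of each pair. The inducible and constitutive medians are below 0 in all 3 pairs, while the ER median is 0.31 in replicate 3 and close to 0 in replicate 2. The mitochondrial panel repeats HSPD1 and HSPE1 from the inducible panel and HSPA9 and DNAJA3 from the constitutive panel.

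Beyond the family, 28 partner genes were listed, of which 27 were tested. In the fit with G+C correction and block FKBP4, an HSP90 co-chaperone of steroid receptors, fell by 17.0% (adjusted p = 0.0487). HSPA5 (BiP), the HSP70 of the ER, rose, with a log2 fold change of 0.42 ± 0.047 (adjusted p = 0.0365), and 25 did not pass. That is 1 of 27 in each direction, beside 2.15% of all genes that fell and 3.06% that rose. HSPA5 had 85.4, 83.2 and 100.7 FPKM in SCARNA13 ASO, against 65.5, 62.3 and 71.9 FPKM in Control ASO, without overlap. FKBP4 had 30.8, 30.5 and 41.9 FPKM in SCARNA13 ASO, against 37.9, 38.8 and 50.2 FPKM in Control ASO, with overlapping groups and a lower value in SCARNA13 ASO within each number. The partner median was -0.089. All 8 subunits of TRiC, the cytosolic chaperonin that folds actin and tubulin, had negative values (-0.28 to -0.023). None of them passed with G+C correction and block, while 5 of 8 were lower in replicates 1 and 2 alone, where 8 partners were lower (FKBP4, VCP, STIP1, CCT2, CCT4, CCT5, CCT6A and CCT8) and HSPA5 was higher, beside 4.59% of all genes lower and 4.52% higher.

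The 31 members below the level filter included 6 listed at 0 in every library, DNAJB8, DNAJC25-GNG10, DNAJC5B, DNAJC5G, HSPB2 and HSPB2-C11orf52. HSPA14 (mean 0.996 FPKM) and DNAJC25 (0.968 FPKM) lay just outside the filter and HSF2 (1.00 FPKM) just inside. HSPA6, the HSP70 gene that human cells express almost only under strong stress, was covered by 10, 9 and 21 reads in SCARNA13 ASO and by 22, 10 and 14 reads in Control ASO. HSPA4L and HSPA1L averaged 0.390 and 0.654 FPKM over the 6 libraries. None of the genes below the filter was tested, and their read numbers give little precision.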

How the data were processed

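The 6 RNA-seq libraries were made from total RNA of HCCLM3 cells with an Illumina TruSeq kit, per the labels' protocols. TopHat2 2.0.9, Bowtie2 2.0.6 and hg19 are named in the submitters' processing notes; the counting tool and the annotation were not given in the sources used. The authors deposited 1 value per gene and library, taken here as FPKM: the unit is inferred, since value times gene length was a whole multiple of 1 step per library for 100% of values (tolerance 0.01). Whole reads were recovered from these steps. The implied library sizes were 0.760 (SCARNA13 ASO) and 0.634 (Control ASO) times the reads for replicate 3 and 1.21 to 1.24 times for the others. Positions are those of GRCh38: 56647 of 58039 gene identifiers (97.6%) had the same start and end in GENCODE 29.

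Groups and replicate numbers come from the titles. limma 3.58.1 (R 4.3.3; limma-trend) was fitted to log2(FPKM + 0.5) where the 6 libraries averaged 1 FPKM or more, group as the only term, Benjamini-Hochberg over all genes, two-sided, threshold 0.05. Fold changes are on that log2 scale and are too small for low genes. The G+C correction subtracts, in each library, a loess curve (span 0.5) over the G+C content of the longest GENCODE transcript. Deviations from the group means correlated at 0.84, 0.78 and 0.91 for same-numbered libraries, so numbers were used as pairs; replicates 1 and 2 also correlated across numbers (0.81 in both cases), so only replicate 3 is set apart by the check. Members, lists and tests were chosen with earlier results of these data known. Genes named with values are all tested HSP70, HSP110, HSP90 and chaperonin genes, HSPB1, BAG and HSF genes, every called DNAJ gene, the 5 most abundant DNAJ genes and the 3 with the largest rise and fall; DNAJA2, DNAJA3, DNAJB5, DNAJC2, DNAJC6, DNAJC7, DNAJC21, HSPBP1, HSPB11 and the genes below or near the filter were named after their values were seen. Alternatives were other pseudocounts, filters and scalings, limma-voom, the block, the G+C correction, and each library or pair left out. No count of 0 was taken as absence, and the number of FPKM values per group, 3, limits the precision.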

Additional observations from a re-analysis of the deposited data

How the results depend on the processing

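With group as the only term, 0 genes and 0 members passed under the other pseudocounts, filters and scalings, limma-voom, the G+C correction alone, and with any 1 library left out. With the replicate block added and no G+C correction, 0 genes and 0 members passed as well. With the G+C correction and replicate block together 526 genes passed, 7 of them members. In replicates 1 and 2 alone 922 genes and 10 members passed without the block, and 629 genes and 8 members with it. With correction and block, 14 genes and 0 members passed without replicate 1, 0 genes without replicate 2, and 763 genes and 9 members without replicate 3. The block alone left the fold changes as they were, put 2598 genes and 15 members at an unadjusted p under 0.05 (173 genes and 0 members without it) and gave a lowest adjusted p of 0.0506. With the block, replicates 1 and 2 no longer called HSPA1B and HSPH1.

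The inducible median (-0.25 on deposited values) was -0.19 with the G+C correction with or without block, -0.35 in replicates 1 and 2 with or without block, -0.33 with correction and block without replicate 3, -0.17 scaled to total reads and -0.17 with limma-voom. It ranged from -0.43 to -0.18 with 1 library left out. The constitutive median (-0.16) was -0.12 with correction and block without replicate 1, -0.080 scaled to total reads, -0.094 with limma-voom, and -0.21 to 0.0064 with 1 library left out; it was above 0 without Control ASO replicate 1. The ER median (0.12) ranged from -0.10, without Control ASO replicate 3, to 0.41, without Control ASO replicate 2. Scaling to total reads and limma-voom put the median of all genes at 0.057 and 0.072.

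Of the 31 members named by rule, 14 had the same sign under every alternative, among them HSPA1A, HSPA1B, HSPA8, DNAJA1, BAG3 and DNAJB2. Their sizes were less stable: on deposited values, leaving out SCARNA13 ASO replicate 3 gave -0.31 for HSPA1A (-0.49 with all libraries), -0.30 for HSPA1B (-0.45), -0.18 for HSPA8 (-0.30), -0.18 for DNAJA1 (-0.37) and 0.027 for DNAJB2 (0.40). Leaving out Control ASO replicate 3 gave -0.29 for BAG3 (-0.55), -0.46 for HSPA8, -0.61 for DNAJA1 and 0.82 for DNAJB2. The exceptions with other signs were mostly near 0, except in the fits with 1 library left out. There some were large, such as 0.43 for HSF1 and 0.35 for DNAJC5 without Control ASO replicate 3. Others there were small, such as -0.014 for DNAJC13. In replicates 1 and 2, with or without block, BAG2 was 0.047, DNAJC5 0.0034, DNAJC8 -0.061, HSF1 0.014, HSPA9 -0.059 and HSPE1 -0.080. With the G+C correction, with or without block, DNAJC5 was 0.051. With correction and block, without replicate 1, DNAJC5 was 0.051 and HSF1 0.019. Without replicate 2, BAG4 was -0.074 and DNAJC5 0.096. Without replicate 3, BAG2 was 0.045, DNAJC5 0.0046, DNAJC8 -0.038, HSPA9 -0.038 and HSPE1 -0.053. Scaled to total reads, BAG2 was 0.030, DNAJC5 0.086 and HSF1 0.011. With limma-voom, BAG2 was 0.030, DNAJC5 0.088 and HSF1 0.014, and at the upper quartile DNAJC5 was 0.030. With 1 library left out, values ranged from -0.24 to 0.24 for BAG2, -0.31 to 0.42 for BAG4, -0.58 to 0.27 for BAG6, -0.037 to 1.27 for DNAJB4, -0.014 to 0.59 for DNAJC13, -0.70 to 0.20 for DNAJC4, -0.36 to 0.35 for DNAJC5, -0.15 to 0.14 for DNAJC8, -0.51 to 0.43 for HSF1, -0.62 to 0.11 for HSP90AA1, -0.25 to 0.68 for HSPA13, -0.44 to 0.17 for HSPA4, -0.038 to 0.087 for HSPA9, -0.55 to 0.17 for HSPB1, -0.43 to 0.095 for HSPD1, -0.31 to 0.26 for HSPE1 and -0.64 to 0.020 for HSPH1. Leaving out 1 library of replicate 3 keeps replicate 3 in the other group alone. DNAJB4 was below 0 without Control ASO replicate 3. Its deposited log2 differences within replicate numbers 1, 2 and 3 were 0.58, 0.60 and 0.76. The cause was not tested. The fit with HSPA1A and HSPA1B summed was chosen after seeing the data.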

Other observations

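A few members below the level filter were raised in 1 library, chosen after their values were seen. HSPB6, a small heat shock protein of muscle, was covered by 8, 4 and 2 reads in SCARNA13 ASO and by 7, 2 and 24 reads in Control ASO. HSPB9, a testis small heat shock protein, was covered by 6, 2 and 21 reads in SCARNA13 ASO and by 4, 9 and 1 reads in Control ASO. The library with the most reads was Control ASO replicate 3 for HSPB6 and SCARNA13 ASO replicate 3 for HSPB9.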
